A study of Homo sapiens with 18 samples.

Results

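The genes described here are those that moved the same way after knockdown of either of 2 protein disulphide isomerases in LNCaP cells. A gene was taken as common when the mean of the 4 knockdown groups differed from the mean of the 2 control groups and its 4 separate effects, each siRNA against the control of the same time, shared a sign. Of 59385 genes in the deposited table, 11685 had a mean RPKM (read number per kilobase, scaled to library size) of at least 1 and were tested, and 4583 of these (39.2%) were common. The common genes comprised 1742 that were higher and 2841 that were lower after knockdown.

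LNCaP is a human prostate cancer line, derived from a lymph node metastasis, that depends on androgen signalling. Every group was grown in medium with 10% fetal bovine serum and received an siRNA with the lipid reagent RNAiMAX, and each of the 6 groups had 3 polyA RNA-seq libraries. The groups were the control siRNA siNC at 48 h, siNC at 96 h, siPDIA1 at 48 h, siPDIA1 at 96 h, siPDIA5 at 48 h and siPDIA5 at 96 h. The target of siPDIA1 is the gene P4HB, which encodes PDIA1, and that of siPDIA5 is PDIA5. Whether a group's 3 libraries stem from different cultures is not stated in the labels. The p-values therefore reflect only how much these samples vary, which could be technical variation. The siRNA sequences are not given here.

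Protein disulphide isomerases (PDIs) act in the endoplasmic reticulum (ER), where they make, break and rearrange disulphide bonds while secreted and membrane proteins fold. When folding falls behind, sensors in the ER membrane start the unfolded protein response, in which the transcription factors ATF6, XBP1 and ATF4 raise chaperones, degradation factors and amino acid supply. PDIA1 is among the most abundant members of the family, and PDIA5 is best known for its action on ATF6.

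The sequences below are the promoters of 5 common genes from the groups treated further on, shown because each holds a motif known to bind regulators of its group. They run from 250 bases before to 50 bases after the annotated start, 5′ to 3′ on the gene's strand, and come from RefSeq (GRCh38.p14). Capitals mark the motif matches on either strand. PLK1 (chr16:23678639-23678938, plus strand) and CDCA8 (chr1:37692266-37692565, plus strand), genes of mitosis, hold the cell cycle homology region TTTGAA and the CCAAT box, bound by NF-Y. In CDCA8 the TTTGAA overlaps the last CCAAT match, which lies on the other strand. MCM7 (chr7:100101348-100101647, minus strand), a subunit of the replicative helicase, holds the E2F motif TTTCCCGC and CCAAT boxes. CALR (chr19:12938359-12938658, plus strand), the chaperone calreticulin, holds the ER stress response element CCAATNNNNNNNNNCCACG, and HERPUD1 (chr16:56931892-56932191, plus strand), a scaffold of ER-associated degradation, holds the second form of that element, ATTGGNCCACG. Both ER stress elements contain a CCAAT box, and further CCAAT boxes of these 2 promoters are left in lower case.
PLK1: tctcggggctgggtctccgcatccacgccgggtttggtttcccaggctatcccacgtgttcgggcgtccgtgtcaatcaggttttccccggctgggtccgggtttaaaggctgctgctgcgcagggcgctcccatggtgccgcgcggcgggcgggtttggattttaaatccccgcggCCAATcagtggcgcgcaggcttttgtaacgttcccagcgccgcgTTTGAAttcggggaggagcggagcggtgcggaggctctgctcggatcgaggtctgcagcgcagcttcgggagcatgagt
CDCA8: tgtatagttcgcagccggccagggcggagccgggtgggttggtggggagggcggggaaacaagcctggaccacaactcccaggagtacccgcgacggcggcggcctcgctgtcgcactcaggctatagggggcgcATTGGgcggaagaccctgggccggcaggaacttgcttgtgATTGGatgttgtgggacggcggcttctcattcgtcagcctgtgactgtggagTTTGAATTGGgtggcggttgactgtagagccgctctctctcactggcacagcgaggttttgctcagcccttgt
MCM7: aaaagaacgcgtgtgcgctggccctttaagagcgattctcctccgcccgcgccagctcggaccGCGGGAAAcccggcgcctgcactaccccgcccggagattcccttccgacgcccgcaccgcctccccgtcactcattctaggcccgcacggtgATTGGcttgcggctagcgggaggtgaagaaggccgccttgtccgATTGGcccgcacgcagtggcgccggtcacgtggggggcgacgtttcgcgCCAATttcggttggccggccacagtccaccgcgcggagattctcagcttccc
CALR: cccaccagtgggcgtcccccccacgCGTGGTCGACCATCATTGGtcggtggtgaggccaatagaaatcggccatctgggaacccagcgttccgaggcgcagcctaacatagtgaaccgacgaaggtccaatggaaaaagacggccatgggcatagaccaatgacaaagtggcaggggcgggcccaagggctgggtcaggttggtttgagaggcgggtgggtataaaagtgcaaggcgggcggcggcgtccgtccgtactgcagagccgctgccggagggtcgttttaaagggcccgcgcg
HERPUD1: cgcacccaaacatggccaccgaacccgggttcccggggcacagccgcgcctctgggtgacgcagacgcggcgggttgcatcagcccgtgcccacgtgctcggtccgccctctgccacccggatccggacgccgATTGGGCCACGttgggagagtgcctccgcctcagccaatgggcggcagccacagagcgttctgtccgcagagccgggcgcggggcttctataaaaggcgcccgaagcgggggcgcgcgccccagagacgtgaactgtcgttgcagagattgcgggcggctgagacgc

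Each siRNA lowered its target, and neither target is a common gene. P4HB (ENSG00000185624.16, chr17:81843159-81860694, minus strand) averaged 66.9 ± 0.761 RPKM (SD, n = 3) with siNC at 48 h, 5.73 ± 0.458 after siPDIA1 and 129 ± 3.13 after siPDIA5. PDIA5 (ENSG00000065485.20, chr3:123067062-123225227, plus strand) averaged 14.0 ± 0.464 RPKM with siNC at 48 h, 16.4 ± 0.828 after siPDIA1 and 1.55 ± 0.195 after siPDIA5. At 96 h the P4HB means were 68.9, 9.16 and 124 RPKM and the PDIA5 means 14.9, 15.9 and 1.40 RPKM in the same order. P4HB thus lay above its control in each siPDIA5 library, which is why its effects do not share a sign.

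**Figure D1:**
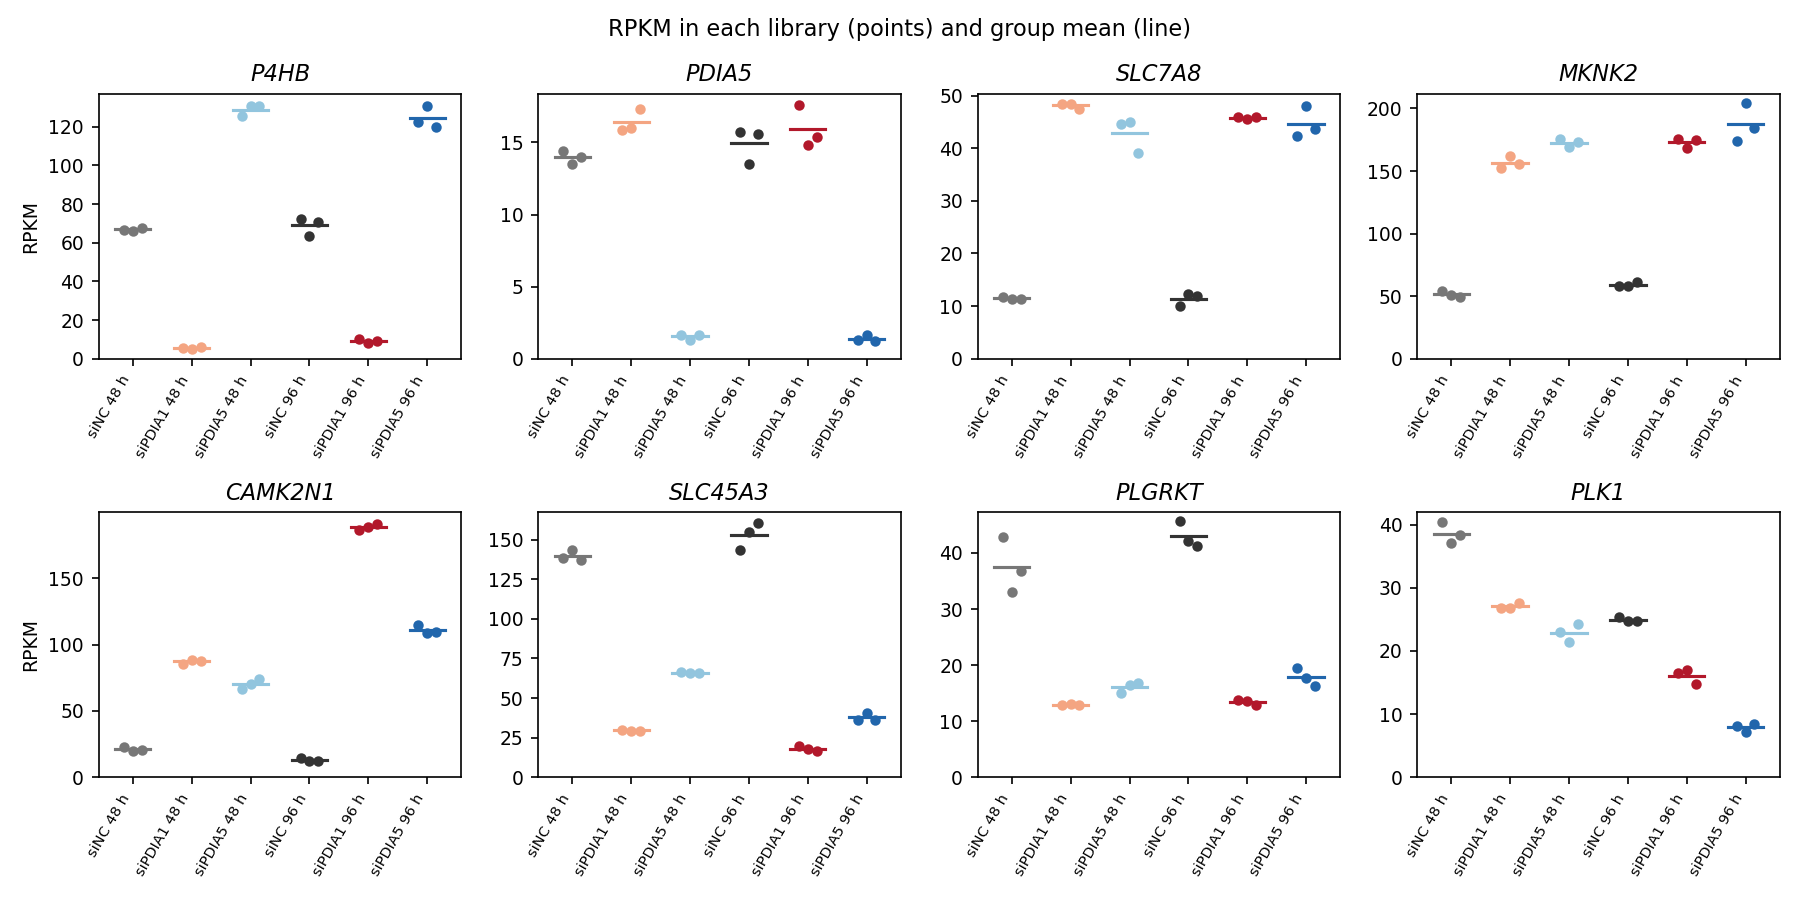
RPKM of the targets P4HB and PDIA5 and of 6 common genes in each of the 18 libraries (points) with the group mean (line), on linear axes with siNC in grey, siPDIA1 in red and siPDIA5 in blue. SLC7A8, MKNK2 and CAMK2N1 lay above the controls of the same time in every knockdown library, and SLC45A3, PLGRKT and PLK1 lay below them. Apart from PLK1, these common genes were chosen among those whose knockdown and control libraries did not overlap.

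The libraries held an estimated 29.2 to 43.9 M reads on genes (M, 1e6). Mitochondrially encoded transcripts took 9.50% to 9.88% of them in siNC at 48 h and 10.1% to 11.1% in siNC at 96 h, against 10.1% to 11.5% after siPDIA1 and 10.6% to 13.9% after siPDIA5. Among the libraries, siPDIA1 replicate 1 at 96 h deviated most from its group (0.247 log2, root mean square over genes, against 0.109 to 0.179). The prostate markers KLK3, KLK2, FOLH1, KRT8 and HOXB13 lay at 33.1 RPKM or more in every library, as did KRT18 and TMPRSS2, and SLC45A3, a member of the lower genes, lay at 16.9 to 160 RPKM. Of the basal markers, KRT5, TP63 and KRT14 reached at most 0.013, 0.0573 and 0.679 RPKM. The stromal DCN and COL3A1 reached 0.0103 and 0.584, the leukocyte PTPRC and CD68 reached 0.0263 and 0.161 with CD3E listed at 0, and the endothelial CDH5 and PECAM1 reached 0.012 and 0.0311. The stromal COL1A1 lay at 1.69 to 3.59 RPKM and the endothelial VWF at 0.901 to 3.24, and the part of other cells in the results was not tested.

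The contrast of the 4 knockdown groups with the 2 siNC groups was called for 6491 genes (55.5% of those tested), 2552 higher (21.8%) and 3939 lower (33.7%), by limma at an adjusted p under 0.05. The 4 effects shared a sign in 5197 genes (44.5%), 1992 higher (17.0%) and 3205 lower (27.4%). Both conditions held for 1742 higher (14.9%) and 2841 lower genes (24.3%), while 1908 genes (16.3%) had a called contrast with effects of mixed sign. Since the contrast and the signs chose the genes, their direction is a description. At each time both siRNAs were compared with the same 3 siNC libraries, and no untransfected group was analysed here. A response to loss of the PDIs and a change made by siNC itself therefore cannot be told apart, and a chance deviation of the shared controls moves both effects alike. In bulk RNA, fewer cells of a kind and less RNA per cell cannot be told apart either.

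Most common genes moved by less than 1.5-fold. The median size of the contrast was 0.366 (log2) among the higher and 0.327 among the lower genes, and 387 higher and 349 lower genes reached 1.5-fold, of which 81 and 45 reached 2-fold. Fold changes are on the log2(RPKM + 1) scale, which understates the change of genes with low values. In 662 higher (5.67% of all genes tested) and 789 lower genes (6.75%) each of the 4 effects was called by itself. This balance turned with other scalings, to 788 higher and 573 lower with median centring of each library and 810 and 650 with quantile normalization. In 765 higher (6.55%) and 1042 lower genes (8.92%) the 6 knockdown libraries did not overlap the 3 siNC libraries at either time. All 4 effects reached 2-fold in 26 higher and 8 lower genes. For 101 of the higher genes both siNC means lay under 1 RPKM and for 7 of the lower genes all 4 knockdown means did, so these passed the filter only through the groups in which they were high. At the limits of the rule, MEMO1P1 had the lowest mean of a common gene (1.002 RPKM). RP11-162G10.5 was the last inside the threshold at an adjusted p of 0.04965 by limma with a change of 0.41 (log2), and NIT1 was the first outside at 0.05009 with 0.13.

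Protein-coding genes made up 92.7% of the higher and 93.6% of the lower genes, against 80.6% of the genes tested that were not common. The median mean level was 7.52 RPKM in the higher, 8.40 in the lower and 4.96 in the remaining genes. The balance between the directions depended on the scaling. With each library centred on its median, 2177 genes were higher and 2259 lower, so that higher genes made up 49.1% of the common genes in place of 38.0%, and quantile normalization gave 2159 and 2405.

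**Figure D2:**
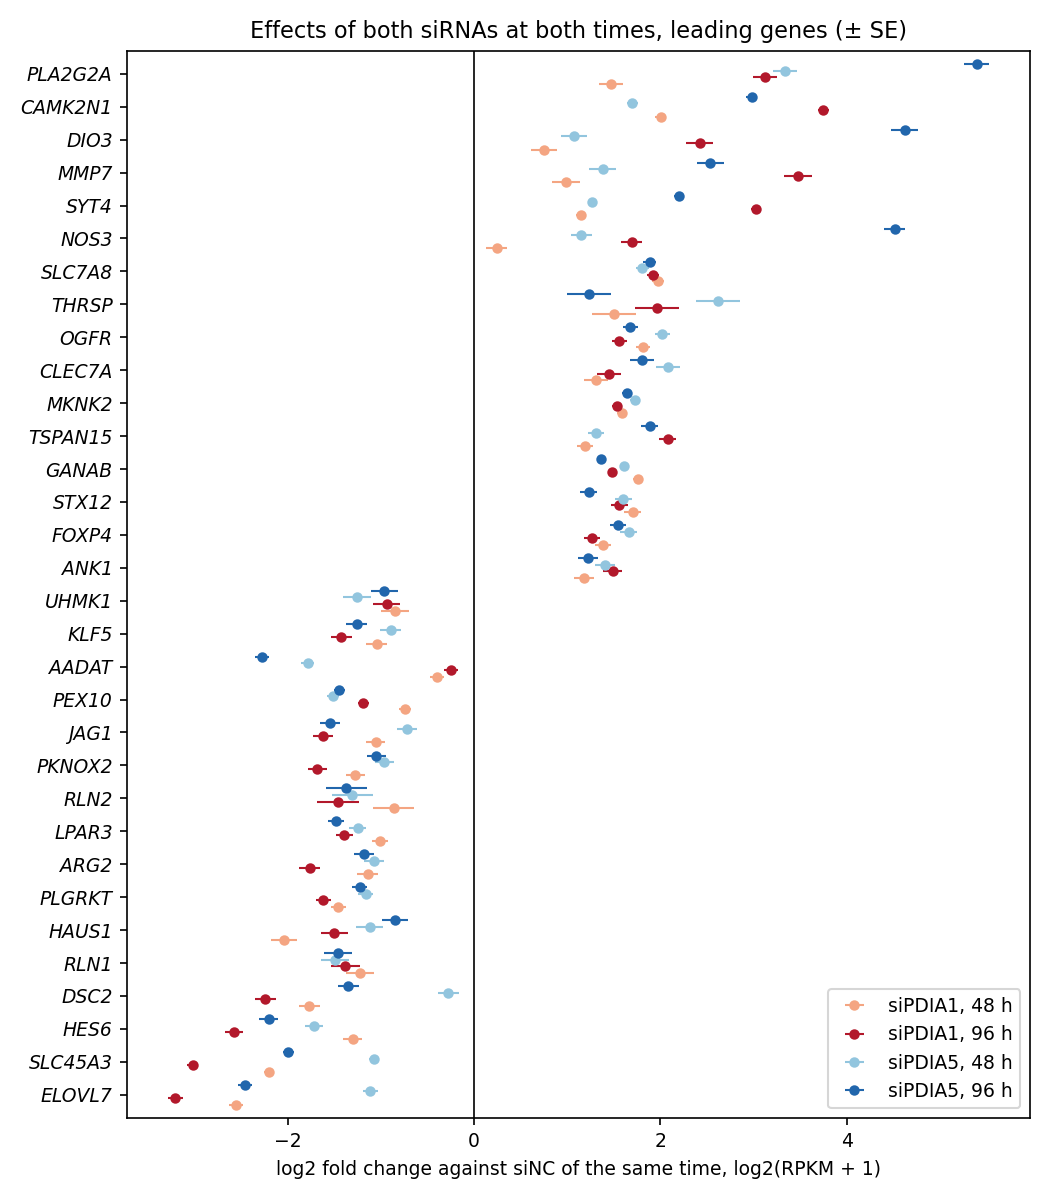
Log2 fold change (± SE) of each siRNA against siNC of the same time for the 16 higher and 16 lower leading genes, ordered by the mean effect. Points of a gene lie on the same side of 0 by the rule, close together for SLC7A8 and MKNK2 and far apart for PLA2G2A, DIO3, NOS3 and DSC2.

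All leading genes, higher and lower, were chosen among protein-coding common genes whose knockdown and siNC libraries did not overlap at either time. Their separation and their called contrasts follow from that choice and are descriptions. The higher genes that led by their weakest effect included an amino acid transporter, kinase regulators and an ER glycosidase. SLC7A8 (ENSG00000092068.20, chr14:23125295-23183674, minus strand) encodes LAT2, an exchanger of neutral amino acids. At 48 h SLC7A8 was at 11.8, 11.4 and 11.4 RPKM in siNC, 48.5, 48.4 and 47.5 after siPDIA1 and 44.5, 44.9 and 39.1 after siPDIA5. At 96 h the libraries held 9.99, 12.2 and 11.9 RPKM in siNC, 45.9, 45.5 and 45.8 after siPDIA1 and 42.2, 48.0 and 43.7 after siPDIA5. All 12 knockdown libraries lay between 39.1 and 48.5 RPKM and all 6 controls at 12.2 or less, and the rise was 1.90 ± 0.04 (log2, SE; adjusted p = 7.73e-15). Neither the siRNAs (0.10 ± 0.05, adjusted p = 0.0808) nor the times (0.01 ± 0.08, adjusted p = 0.948) differed beyond the threshold for this gene.

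MKNK2 encodes a kinase of the translation factor eIF4E. At 48 h MKNK2 was at 54.5, 50.6 and 49.2 RPKM in siNC, 152, 162 and 156 after siPDIA1 and 175, 169.5 and 173 after siPDIA5. The 96 h libraries held 58.0, 58.1 and 61.4 RPKM in siNC, 176, 168 and 175 after siPDIA1 and 174, 204 and 184 after siPDIA5. As the choice required, knockdown and siNC libraries did not overlap at either time, and the rise was 1.62 ± 0.03 (adjusted p = 4.12e-15). GANAB encodes the catalytic subunit of glucosidase II, which trims the sugar chains of newly made glycoproteins. At 48 h GANAB was at 39.9, 39.9 and 42.2 RPKM in siNC, 139, 140.2 and 139 after siPDIA1 and 129, 127 and 123 after siPDIA5. By 96 h the siNC libraries were at 38.8, 44.0 and 42.5 RPKM, those of siPDIA1 at 114, 121 and 121 and those of siPDIA5 at 105, 115 and 107. GANAB rose by 1.55 ± 0.03 (adjusted p = 2.24e-15), the largest rise among the members of the ER folding list.

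CAMK2N1, an inhibitor of the kinase CaMKII, had its 4 effects farther apart. At 48 h CAMK2N1 was at 22.8, 19.8 and 20.5 RPKM in siNC, 85.7, 88.2 and 87.9 after siPDIA1 and 66.5, 70.4 and 74.3 after siPDIA5. In the 96 h groups the values were 14.4, 12.6 and 12.5 RPKM in siNC, 187, 188 and 191 after siPDIA1 and 114, 108 and 109 after siPDIA5. The contrast was 2.61 ± 0.04 (adjusted p = 5.63e-17), and the effect was larger at 96 h by 1.51 ± 0.07 (adjusted p = 4.87e-09). Its siNC libraries changed from 48 h to 96 h by -0.64 (log2, adjusted p = 5.63e-06), which enters that difference.

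PLA2G2A, a secreted phospholipase A2, had the largest contrast of all common genes. At 48 h PLA2G2A was at 5.79, 3.17 and 4.79 RPKM in siNC, 14.1, 15.0 and 13.5 after siPDIA1 and 49.7, 51.9 and 61.8 after siPDIA5. For 96 h the values were 8.54, 7.45 and 9.22 RPKM with siNC, 81.4, 77.1 and 83.6 with siPDIA1 and 388, 377 and 414 with siPDIA5. The contrast was 3.33 ± 0.08 (adjusted p = 2.81e-14), with separate effects of 1.47 and 3.12 after siPDIA1 and 3.34 and 5.39 after siPDIA5, at 48 h and 96 h. Every knockdown library lay above its controls, as the choice required, and the siPDIA5 libraries lay above the siPDIA1 libraries at both times. DIO3, which inactivates thyroid hormone, and NOS3, the endothelial nitric oxide synthase, had the same order of group means, with controls under 1 RPKM. DIO3 had separate effects of 0.75 and 2.42 after siPDIA1 and 1.07 and 4.62 after siPDIA5, at 48 h and 96 h. NOS3 had effects of 0.24 and 1.69 after siPDIA1 and 1.15 and 4.51 after siPDIA5, at 48 h and 96 h, and the first of these was not called (adjusted p = 0.115). The exons of NOS3 share 786 bases with ATG9B on the other strand.

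The other leading higher genes were OGFR, the opioid growth factor receptor (1.77 ± 0.05), and CLEC7A, the glucan receptor dectin-1 (1.66 ± 0.08). STX12, an endosomal syntaxin, rose by 1.52 ± 0.06, the forkhead factor FOXP4 by 1.46 ± 0.05, and TSPAN15, a tetraspanin partner of ADAM10, by 1.61 ± 0.05. THRSP, a nuclear protein of lipogenic tissue, rose by 1.83 ± 0.14, with siNC libraries at 0.269 to 1.93 RPKM and knockdown libraries up to 8.85. ANK1, an ankyrin of the membrane skeleton, rose by 1.32 ± 0.06, and its siNC libraries did not exceed 0.386 RPKM. MMP7, the metalloproteinase matrilysin, rose by 2.10 ± 0.09, and SYT4, a synaptotagmin, by 1.91 ± 0.03. In 8 of the 12 higher genes with the strongest weakest effect the siRNAs differed in size and in 4 the times did, where 56.9% and 10.5% of all genes tested differed, and in 3 neither difference was called.

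One of the lower genes with the strongest weakest effect was SLC45A3 (ENSG00000158715.6, chr1:205657851-205680459, minus strand). It encodes prostein and is an androgen-regulated gene of prostate epithelium, and it was lower in every knockdown library, as the choice required. At 48 h SLC45A3 was at 138, 144 and 137 RPKM in siNC, 29.9, 29.5 and 29.5 after siPDIA1 and 66.2, 66.1 and 65.5 after siPDIA5. At 96 h the libraries held 144, 155 and 160.3 RPKM in siNC, 19.5, 17.6 and 16.9 after siPDIA1 and 36.2, 40.7 and 36.4 after siPDIA5. The highest knockdown value was 66.2 RPKM and the lowest siNC value 137, and the contrast was -2.07 ± 0.03 (adjusted p = 3.11e-16).

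ELOVL7, an elongase of long fatty acids, had the largest fall of all common genes. At 48 h ELOVL7 was at 33.4, 34.3 and 30.5 RPKM in siNC, 4.79, 4.92 and 4.56 after siPDIA1 and 14.9, 15.8 and 13.3 after siPDIA5. The 96 h libraries held 38.3, 43.5 and 38.0 RPKM in siNC, 3.37, 3.24 and 3.73 after siPDIA1 and 6.54, 7.06 and 5.84 after siPDIA5. The contrast was -2.33 ± 0.05 (adjusted p = 4.12e-15), and at each time the siPDIA1 libraries lay below the siPDIA5 libraries. HES6, a basic helix-loop-helix factor of the HES family, showed the largest fall among the ID, HES, BMP and Notch genes. At 48 h HES6 was at 117, 118 and 135 RPKM in siNC, 52.7, 51.3 and 44.4 after siPDIA1 and 36.2, 33.3 and 41.0 after siPDIA5. By 96 h the siNC libraries were at 231, 173 and 213 RPKM, those of siPDIA1 at 33.2, 33.5 and 33.7 and those of siPDIA5 at 45.8, 40.4 and 44.7. HES6 fell by 1.95 ± 0.06 (adjusted p = 6.85e-13), and its controls were higher at 96 h than at 48 h by 0.73 ± 0.10 (adjusted p = 0.000131).

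Among the leading lower genes, 3 were neighbours on chromosome 9. RLN2 (chr9:5299868-5304969), RLN1 (chr9:5334969-5339873) and PLGRKT (chr9:5357973-5437878) lie in a row on the minus strand of GRCh38. RLN1 and RLN2 encode relaxins, and PLGRKT a plasminogen receptor. At 48 h PLGRKT was at 42.9, 33.0 and 36.7 RPKM in siNC, 12.9, 13.1 and 12.9 after siPDIA1 and 15.1, 16.5 and 16.8 after siPDIA5. In the 96 h groups the values were 45.7, 42.1 and 41.3 RPKM in siNC, 13.7, 13.5 and 12.9 after siPDIA1 and 19.6, 17.7 and 16.3 after siPDIA5. At 48 h RLN1 was at 10.6, 10.4 and 9.58 RPKM in siNC, 3.63, 3.65 and 4.13 after siPDIA1 and 3.25, 2.43 and 3.30 after siPDIA5. For 96 h the values were 12.5, 9.22 and 10.8 RPKM with siNC, 3.75, 2.42 and 4.68 with siPDIA1 and 3.69, 2.79 and 3.42 with siPDIA5. In both genes each siNC library lay above each knockdown library. PLGRKT changed by -1.36 ± 0.05, RLN1 by -1.39 ± 0.09 and RLN2 by -1.25 ± 0.14 (adjusted p = 3.53e-12, 3.65e-09 and 9.84e-07). RLN1 and RLN2 are similar in sequence, so the split of reads between them may be uncertain, which was not tested. The tested genes on either side differed, since JAK2 fell by 0.54 on the log2 scale, RIC1 was at -0.06 without a call and ERMP1 rose by 0.35. Farther out, RCL1 (-0.48), CDC37L1 (-0.46), RANBP6 (-0.58) and UHRF2 (-0.20) were common and lower. KIAA2026 (0.36) was common and higher, and AK3 (-0.13) and CDC37L1-DT (0.10) were not common.

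The other lower genes of this rank had varied roles. ARG2, mitochondrial arginase, changed by -1.29 ± 0.07, the lysophosphatidic acid receptor LPAR3 by -1.28 ± 0.05, and the homeobox factor PKNOX2 by -1.24 ± 0.06. The zinc finger factor KLF5 changed by -1.15 ± 0.07, the kinase UHMK1 by -1.001 ± 0.09, and HAUS1, part of the spindle's augmin complex, by -1.38 ± 0.09. The desmosomal cadherin DSC2 changed by -1.41 ± 0.07, although its effect of -0.27 after siPDIA5 at 48 h was not called (adjusted p = 0.0585). The Notch ligand JAG1 changed by -1.23 ± 0.06, the peroxisomal protein PEX10 by -1.22 ± 0.04, and the aminotransferase AADAT by -1.18 ± 0.04 with separate effects of -0.40 and -0.25 after siPDIA1 and -1.78 and -2.28 after siPDIA5, at 48 h and 96 h. The exons of PEX10 share 1481 of 3789 bases with RER1, and those of ARG2 share 904 of 2418 with VTI1B, each on the other strand. Whether reads were counted by strand is not given in the sources used here, so these levels are uncertain. In 7 of the 12 lower genes with the strongest weakest effect the siRNAs differed and in 3 the times did, beside the same 56.9% and 10.5%, and in 4 neither difference was called.

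**Figure D3:**
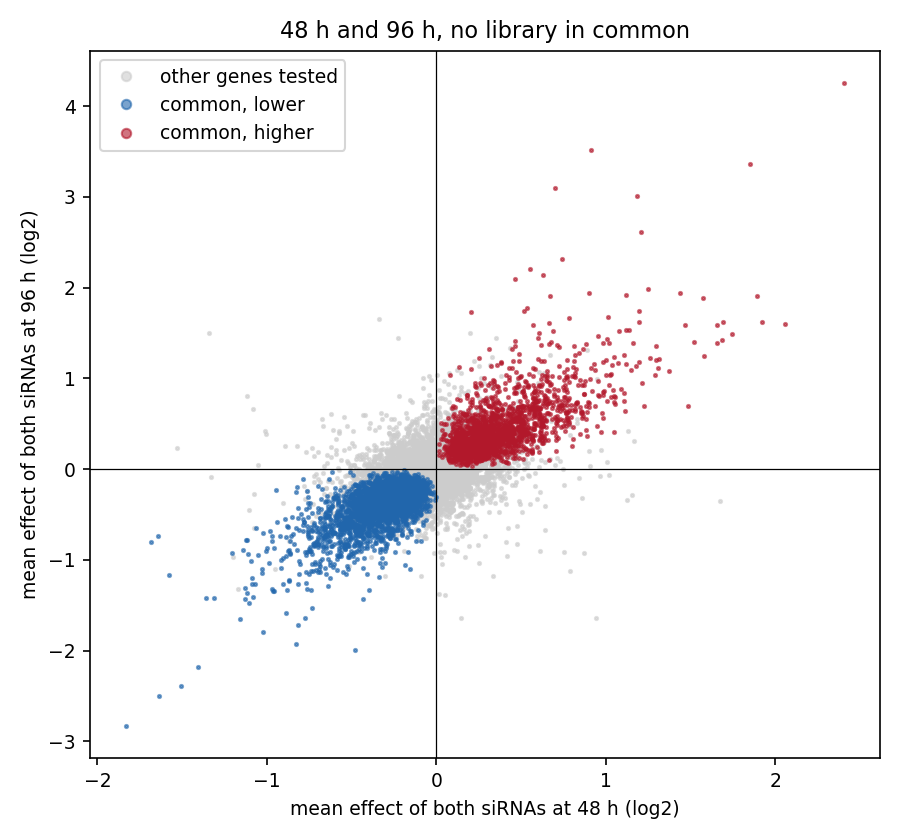
Mean effect of both siRNAs at 96 h against that at 48 h (log2, each against siNC of its time) for the 11685 genes tested, with common genes in colour. The comparisons share no library, and r across genes was 0.729.

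Knockdown and control libraries were separate at the 2 times, which gave a comparison without shared libraries. The mean effect of both siRNAs was called higher for 1782 genes at 48 h (15.3%) and for 2330 at 96 h (19.9%). The overlap of 1369 genes was 76.8% of the 48 h list and 58.8% of the 96 h list, and 34 of the 48 h genes (1.91%) were called lower at 96 h. For lower genes, 2146 were in both lists, which was 73.6% of 2914 at 48 h (24.9%) and 65.0% of 3301 at 96 h (28.2%), and 31 (1.06%) were called higher at 96 h. With median centring the counts at 48 h turned, to 2278 higher and 2137 lower, and those at 96 h were 2641 and 2882. The effects of the 2 times correlated at r = 0.729 across 11685 genes, which are not independent replicates.

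The crossed comparisons changed siRNA and time together and shared no library either. Of the genes called higher after siPDIA1 at 48 h (16.0%), 49.9% were called higher after siPDIA5 at 96 h (20.8%), and 15.0% were called lower. Of those higher after siPDIA5 at 48 h (16.6%), 53.0% were higher after siPDIA1 at 96 h (20.1%) and 13.3% lower. Among lower genes the shares were 58.3% of the siPDIA1 list at 48 h (17.4%) and 41.8% of the siPDIA5 list at 48 h (29.2%), against backgrounds of 30.3% and 25.2% at 96 h, with 11.5% and 10.3% called the opposite way. Taken from the 96 h lists, the same overlaps were 38.3% and 43.9% of the higher and 33.5% and 48.2% of the lower genes. The r across genes was 0.382 and 0.389. These values are lower than that between the times averaged over both siRNAs, a difference that was not tested.

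Sharing a sign did not mean sharing a size. siPDIA1 and siPDIA5, compared directly over both times so that the controls cancel, differed in 56.9% of all genes tested. Of the higher common genes, 435 (25.0%) rose more after siPDIA1, 548 (31.5%) more after siPDIA5, and 759 (43.6%) did not pass the test. Of the lower genes, 446 (15.7%) fell more after siPDIA1, 1160 (40.8%) more after siPDIA5, and 1235 (43.5%) did not pass. The balance between the siRNAs depended on the scaling. Over all genes tested, 4023 were higher after siPDIA1 than after siPDIA5 and 2628 lower, against 3212 and 3215 with median centring and 3449 and 3122 with quantile normalization. The effect differed between the times in 10.5% of all genes, with a higher value at 96 h in 4.77% and a lower one in 5.78%. It was larger at 96 h in 192 of the 1742 higher and 271 of the 2841 lower genes, and smaller in 63 (3.62%) and 15 (0.528%). Neither difference was called in 701 higher (40.2%) and 1158 lower genes (40.8%), which does not show that their effects were equal. Control cells changed too: siNC at 96 h against 48 h was called in 24.3% of all genes, higher in 1285 and lower in 1554.

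**Figure D4:**
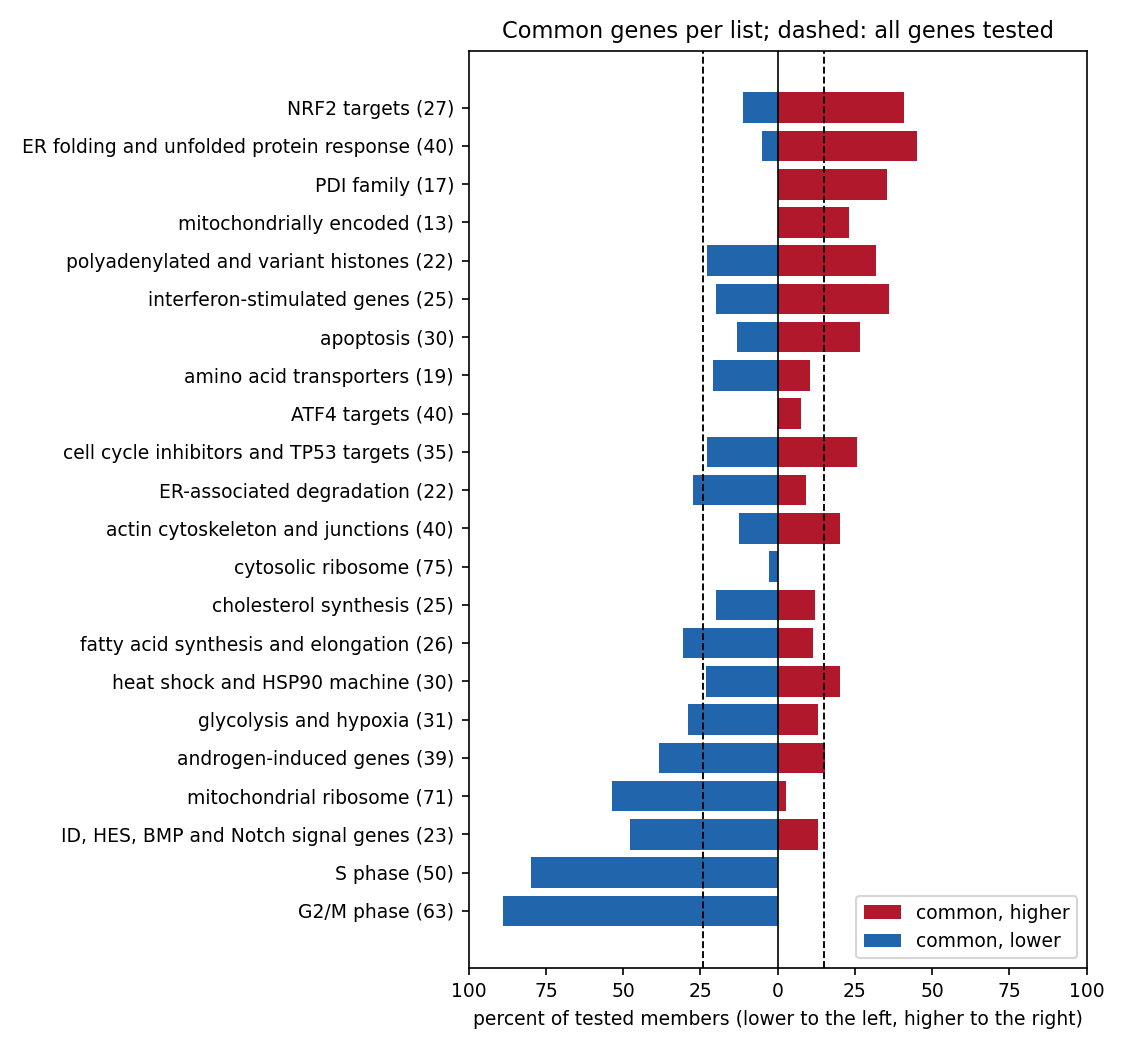
Share of the tested members of each gene list with at least 10 of them (number in brackets) that were common and higher (right, red) or lower (left, blue), in percent, with dashed lines at the shares among all genes tested (14.9% and 24.3%). S phase and G2/M lists reach farthest to the left, and the ER folding and NRF2 lists farthest to the right.

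Genes of the ER lumen leaned towards higher values. Of 17 PDI family genes tested, 6 were common and higher and 0 lower, against 14.9% and 24.3% of all genes. The median contrast was 0.142 (log2), against -0.0491 over all genes. The 17 genes and their median include the siRNA targets P4HB (-1.085) and PDIA5 (-1.246), which were not common. PDIA4 rose by 0.32 ± 0.02 and ERP44, which retains client proteins in the early secretory pathway, by 0.41 ± 0.04. At 48 h PDIA4 was at 96.6, 90.7 and 93.5 RPKM in siNC, 99.6, 104 and 99.0 after siPDIA1 and 127, 128 and 131 after siPDIA5. At 96 h the libraries held 97.7, 94.7 and 93.3 RPKM in siNC, 124, 124 and 127 after siPDIA1 and 122, 123 and 117 after siPDIA5. The libraries of PDIA4 did not overlap between knockdown and control at either time. PDIA3, which works with calreticulin on glycoproteins, rose by 0.27 ± 0.03, PDIA6 by 0.23 ± 0.03, TMX3 by 0.34 ± 0.05 and DNAJC10 by 0.24 ± 0.05. After siPDIA1 at 48 h the effects of PDIA3 (0.03) and PDIA6 (0.10) were the smallest of their 4.

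In the list of ER folding and the unfolded protein response, 18 of 40 genes were common and higher and 2 lower. Among all genes tested the shares were 14.9% and 24.3%. The list's median contrast was 0.145, with median effects of 0.0374 and 0.182 after siPDIA1 and 0.265 and 0.204 after siPDIA5, at 48 h and 96 h. The oxidase ERO1A, which reoxidises PDI, rose by 0.75 ± 0.06, the co-chaperone DNAJC3 by 0.59 ± 0.07, the peroxiredoxin PRDX4 by 0.45 ± 0.05, CALR by 0.31 ± 0.03 and the HSP90 paralog HSP90B1 by 0.19 ± 0.03. HERPUD1 rose by 0.51 ± 0.03. At 48 h HERPUD1 was at 15.2, 15.3 and 13.9 RPKM in siNC, 16.5, 15.7 and 14.6 after siPDIA1 and 23.5, 24.3 and 22.8 after siPDIA5. The 96 h libraries held 15.3, 15.4 and 16.1 RPKM in siNC, 16.8, 16.2 and 16.1 after siPDIA1 and 38.5, 39.4 and 38.3 after siPDIA5. The siPDIA1 libraries of HERPUD1 lay close to their controls, with effects of 0.07 and 0.06, and the siPDIA5 libraries well above, with 0.64 and 1.26. HSPA5, the chaperone BiP, had a called contrast of 0.30 ± 0.03 but was not common, since its effect after siPDIA1 at 48 h was -0.05. The lower members were MOGS, which starts glycan trimming (-0.24 ± 0.05), and CREB3L4, a membrane-bound transcription factor (-0.36 ± 0.04).

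The ER stress response element seen in CALR was found in 7 of 37 matched promoters of this list (18.9%) and in 14 of all 8584 matched promoters of tested genes (0.163%). Of these 7 genes, CALR, CRELD2 and HSP90B1 were common and higher, and CANX (-0.21 ± 0.04), XBP1 (-0.10 ± 0.04), HSPA5 (0.30 ± 0.03) and ERO1B (0.14 ± 0.06) were not common. The second element, as in HERPUD1, was found in 3 of the 37 (8.11%) and in 0.128% of all promoters. Such a match describes letters in a window of 300 bases and does not show that a factor binds there.

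Of 22 genes of ER-associated degradation tested, 2 were common and higher and 6 lower, near the shares among all genes (14.9% and 24.3%). The ubiquitin ligase SYVN1 rose by 0.28 ± 0.03 and AUP1, a lipid droplet and degradation factor, by 0.34 ± 0.05. The conjugating enzymes UBE2J1 (-0.48 ± 0.04), UBE2J2 (-0.34 ± 0.04) and UBE2G2 (-0.37 ± 0.05), the ligase RNF5 (-0.51 ± 0.06), DERL2 (-0.30 ± 0.05) and FAF2 (-0.56 ± 0.04) fell. FAF2 had effects of -0.10 and -0.11 after siPDIA1 and -1.29 and -0.76 after siPDIA5, at 48 h and 96 h.

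Targets of ATF4 were mostly not common. Of 40 tested, 3 were common and higher and 0 lower, against 14.9% and 24.3% of all genes. PPP1R15A, a phosphatase subunit that restores translation, rose by 0.67 ± 0.07, the pseudokinase TRIB3 by 0.55 ± 0.04 and the factor JDP2 by 0.53 ± 0.05. The list's median effects were 0.04 and -0.247 after siPDIA1 and -0.121 and 0.532 after siPDIA5, at 48 h and 96 h, so the groups differed in sign. TRIB3 itself was at 24.9, 25.0 and 25.0 RPKM after siPDIA1 at 96 h and 27.9, 21.6 and 24.9 in siNC, which overlap, and it was no longer common without siNC replicate 2 at 96 h. Among 19 amino acid transporters, 2 were common and higher and 4 lower, beside the same shares of all genes. SLC7A8 and SLC43A2 (0.73 ± 0.03) were higher, and SLC36A1 (-1.02 ± 0.08), SLC43A1 (-0.65 ± 0.04), SLC1A1 (-0.39 ± 0.09) and SLC7A2 (-0.29 ± 0.07) lower.

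**Figure D5:**
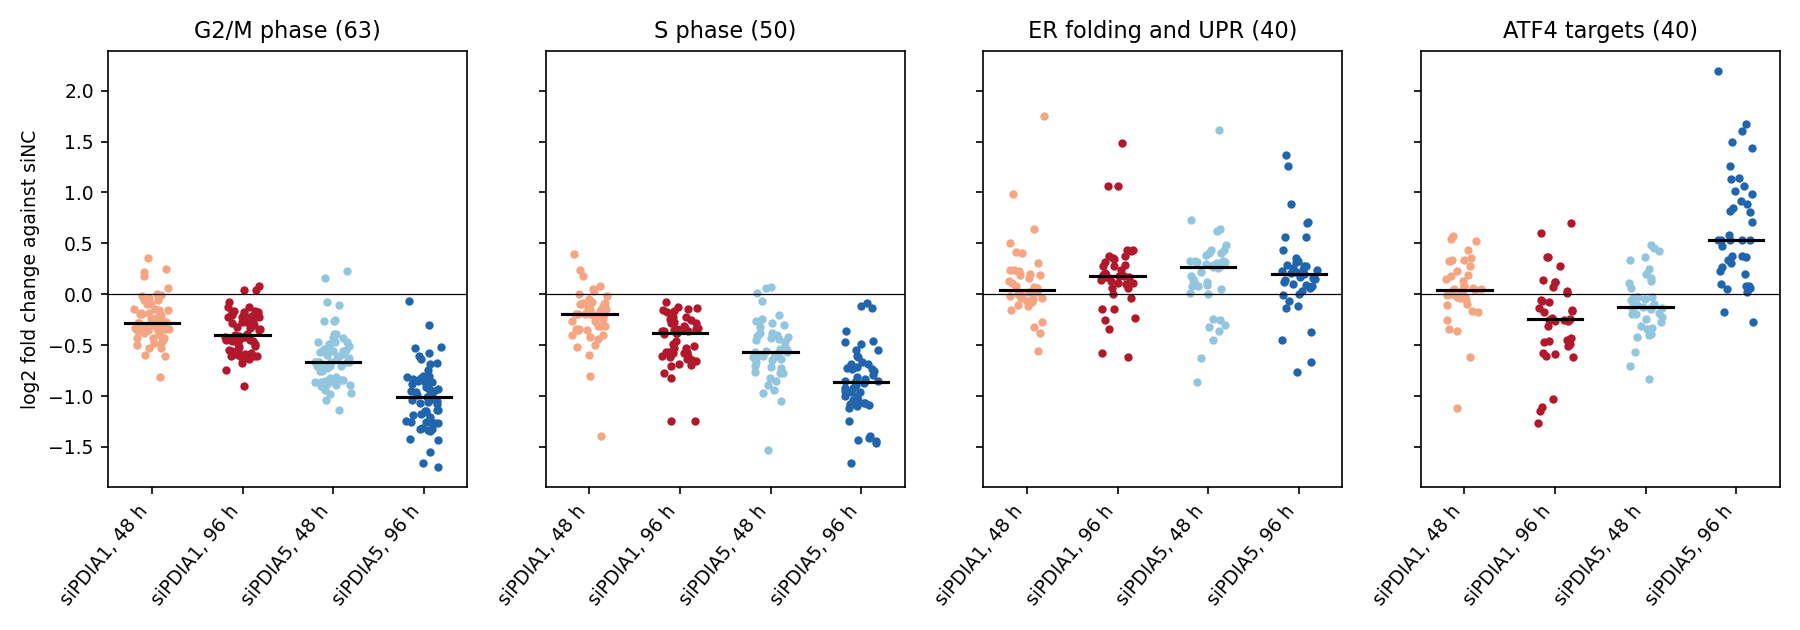
Log2 fold change against siNC of the same time for each tested member (points) and their median (line) in 4 lists, by siRNA and time. The G2/M and S phase medians lie under 0 in all 4 comparisons, and the ATF4 target median lies above 0 most clearly after siPDIA5 at 96 h (0.532) and under 0 after siPDIA1 at 96 h (-0.247).

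The lists with the highest share of lower genes were those of the cell cycle. Of 50 S phase genes tested, 40 were common and lower and 0 higher, with a median contrast of -0.515. Of 63 genes of G2 and mitosis, 56 were common and lower and 0 higher, with a median of -0.571. Each of the 4 effects was called lower in 24 S phase and 32 G2/M genes, beside 6.75% of all genes. The share among all genes was 24.3% lower. With siNC at 48 h and 96 h as controls, the G2/M medians were -0.287 and -0.404 after siPDIA1 and -0.663 and -1.01 after siPDIA5. The S phase medians were -0.192 and -0.379 after siPDIA1 and -0.565 and -0.863 after siPDIA5.

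PLK1, the mitotic kinase, fell by 0.84 ± 0.04 (adjusted p = 3.07e-11). At 48 h PLK1 was at 40.3, 37.1 and 38.3 RPKM in siNC, 26.8, 26.9 and 27.5 after siPDIA1 and 23.0, 21.5 and 24.2 after siPDIA5. By 96 h the siNC libraries were at 25.3, 24.8 and 24.7 RPKM, those of siPDIA1 at 16.5, 16.9 and 14.8 and those of siPDIA5 at 8.14, 7.14 and 8.36. Control cells at 96 h had lower values than at 48 h (-0.61 ± 0.06, adjusted p = 9.53e-06), and at each time the knockdown libraries lay below the controls of that time. CDCA8, the chromosomal passenger borealin, fell by 0.88 ± 0.04, and CDC20, the activator of the anaphase ligase, by 0.91 ± 0.05. The helicase subunits MCM2 and MCM7 changed by -0.69 ± 0.03 and -0.85 ± 0.03. At 48 h MCM7 was at 99.4, 99.3 and 97.7 RPKM in siNC, 67.4, 70.6 and 67.7 after siPDIA1 and 50.8, 54.0 and 57.9 after siPDIA5. In the 96 h groups the values were 78.9, 67.3 and 75.5 RPKM in siNC, 49.4, 48.9 and 45.5 after siPDIA1 and 27.6, 26.6 and 26.8 after siPDIA5. MCM7 was lowest after siPDIA5 at 96 h, and no knockdown library reached its controls. Of the replication genes, CDT1 (-1.04 ± 0.04), which licenses origins, TK1 (-0.95 ± 0.04), thymidine kinase, and TYMS (-0.92 ± 0.05), thymidylate synthase, were also common and lower. TYMS had effects of -0.10 and -0.38 after siPDIA1 and -1.53 and -1.66 after siPDIA5, at 48 h and 96 h. The first of these was not called (adjusted p = 0.328 by limma).

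Letters shared by the G2/M promoters describe the list and are no test of the response. TTTGAA, on either strand, was found in 35 of 52 matched promoters of the list (67.3%), against 765 of all 8584 (8.91%). Among its common members the share was much the same (31 of 45, 68.9%), and CENPA, CENPF, CENPN and KIF20B held TTTGAA without being common. Of the 35, 25 had a match between positions -60 and 20 from the start, as PLK1 at -29 and CDCA8 at -23 do. CCAAT was found in 73.1% of the list and 37.8% of all promoters. The E2F motif TTTCCCGC was found in 11 of 43 S phase promoters (25.6%), in 25.7% of those of common members and in 2.88% of all. Lower common genes outside both lists held TTTGAA at 9.54%, close to the share of all promoters, and higher common genes at 7.33%.

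Inhibitors of the cell cycle and targets of p53 included 9 of 35 that were common and higher and 8 lower, against 14.9% and 24.3% of all genes. BTG1, an antiproliferative gene, rose by 1.47 ± 0.04. At 48 h BTG1 was at 10.6, 11.3 and 10.6 RPKM in siNC, 34.9, 31.4 and 33.0 after siPDIA1 and 20.8, 20.7 and 20.4 after siPDIA5. For 96 h the values were 10.5, 10.2 and 11.6 RPKM with siNC, 59.2, 64.0 and 64.5 with siPDIA1 and 25.4, 21.4 and 23.5 with siPDIA5. Knockdown and control did not overlap, and siPDIA1 libraries lay above siPDIA5 libraries at each time. XPC, of DNA repair, rose by 0.55 ± 0.05, and KLF4 by 0.71 ± 0.06, while PLK3 (-0.68 ± 0.09), TP53INP1 (-0.51 ± 0.07) and BAX (-0.27 ± 0.04) fell. CDKN1A, the inhibitor p21, was not common, with effects of -0.53 and -1.20 after siPDIA1 and 0.06 and -0.13 after siPDIA5, at 48 h and 96 h. Of 30 apoptosis genes, 8 were higher and 4 lower, or 2 lower with quantile normalization. The higher ones included the death receptor TNFRSF10B (0.36 ± 0.03), and also the protective BCL2L1 (0.64 ± 0.04), BIRC2 (0.29 ± 0.05) and BIRC3 (0.56 ± 0.07).

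Of 27 targets of NRF2, the regulator of antioxidant genes, 11 were common and higher and 3 lower, against 14.9% and 24.3% of all genes, with a median of 0.202. The medians by siRNA were -0.0134 and 0.0232 after siPDIA1 and 0.185 and 0.243 after siPDIA5, at 48 h and 96 h. ME1, the malic enzyme that makes NADPH, rose by 0.96 ± 0.04. At 48 h ME1 was at 27.1, 30.0 and 28.98 RPKM in siNC, 60.5, 56.8 and 59.0 after siPDIA1 and 67.8, 62.3 and 54.9 after siPDIA5. At 96 h the libraries held 28.4, 26.1 and 26.8 RPKM in siNC, 56.7, 51.8 and 53.1 after siPDIA1 and 46.6, 46.9 and 48.5 after siPDIA5. Each knockdown library exceeded each control. TXNRD1, thioredoxin reductase, rose by 0.53 ± 0.04, NQO1 by 0.50 ± 0.04 and the ferritin chain FTH1 by 0.81 ± 0.07. GCLM (-0.37 ± 0.04), SRXN1 (-0.50 ± 0.20) and TXN (-0.23 ± 0.05) fell, although 0 members were common and lower with median centring and 1 with quantile normalization. Of 30 genes of the heat shock and HSP90 list, 6 were higher and 7 lower. The small heat shock proteins HSPB8 (1.38 ± 0.06), CRYAB (1.29 ± 0.05) and HSPB1 (0.87 ± 0.05) rose, with CRYAB at 0.17 to 0.252 RPKM in siNC. The HSP90 member HSP90AB1 (-0.48 ± 0.02) and its partners PTGES3 (-0.85 ± 0.03) and STIP1 (-0.35 ± 0.02) fell. PTGES3 had effects of -0.21 and -0.24 after siPDIA1 and -1.74 and -1.23 after siPDIA5, at 48 h and 96 h.

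Of 39 androgen-induced genes, 15 were common and lower and 6 higher, against 24.3% and 14.9% of all genes. The higher count thus lay near its share. The median contrast was -0.143, against -0.0491 over all genes. Besides SLC45A3, ACSL3 (-0.50 ± 0.04), SPDEF (-0.48 ± 0.04) and TMPRSS2 (-0.30 ± 0.03) fell. KLK4 (0.40 ± 0.03), FOLH1 (0.50 ± 0.03), which encodes the membrane antigen PSMA, and BMPR1B (0.84 ± 0.06) rose. FOLH1 is not an androgen-induced gene, so its rise does not run against the falls in this list. KLK3, which encodes PSA, had a called contrast of 0.38 ± 0.03 but was not common, with effects of -0.15 and 0.27 after siPDIA1 and 0.34 and 1.05 after siPDIA5, at 48 h and 96 h.

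Counts in the lists of lipid and sugar metabolism lay near the shares among all genes (14.9% higher and 24.3% lower). Of 25 cholesterol synthesis genes, 3 were common and higher and 5 lower, and of 26 genes of fatty acid synthesis 3 and 8. ELOVL6 (-0.69 ± 0.05), FADS1 (-0.39 ± 0.03) and ACLY (-0.31 ± 0.04) fell, while ACSL1 (0.39 ± 0.03) and THRSP rose. Other scalings moved these counts, to 5 higher cholesterol genes with either median centring or quantile normalization and to 5 and 7 higher fatty acid genes, and the list medians of -0.0106 and -0.0255 changed sign. Without siPDIA1 replicate 1 at 96 h, 1 cholesterol gene was higher. Among 31 genes of glycolysis and hypoxia, 4 were higher and 9 lower, or 5 lower with quantile normalization. PFKL and PFKM, the liver and muscle forms of phosphofructokinase, went opposite ways, with 0.61 ± 0.02 and -0.34 ± 0.03, and LDHA (-0.34 ± 0.04), HK2 (-0.33 ± 0.05) and TPI1 (-0.29 ± 0.05) fell.

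Among all genes tested, 24.3% were common and lower and 14.9% higher. Of 75 genes of the cytosolic ribosome, 2 were common and lower, RPL22 (-0.88 ± 0.04) and RPS15 (-0.19 ± 0.05), and 0 higher. RPS15 lost its call with median centring, quantile normalization gave 6 higher and 5 lower, and 4 were lower without siPDIA1 replicate 1 at 96 h. In the mitochondrial ribosome, 38 of 71 genes were common and lower and 2 higher, against the same shares of all genes. The median contrast was -0.189, against -0.0491 over all genes. MRPS27 changed by -0.57 ± 0.03 and MRPL20 by -0.76 ± 0.05, with effects of -1.41 and -1.28 after siPDIA1 and -0.10 and -0.23 after siPDIA5, at 48 h and 96 h. With median centring 25 were lower and 4 higher, and with quantile normalization 31 and 6, and MRPL20 was not common with median centring. Of the 13 mitochondrially encoded genes 3 were common and higher, with 5 higher under median centring, and 0 higher and 2 lower under quantile normalization.

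Of 23 ID, HES, BMP and Notch signalling genes, 11 were common and lower and 3 higher, against 24.3% and 14.9% of all genes. After HES6 and JAG1, the largest falls were in SMAD7 (-0.69 ± 0.05), an inhibitor of TGF-beta signalling, and NRARP (-0.59 ± 0.06), a Notch feedback gene, and ID3 (0.88 ± 0.08) and BMPR1B rose. Of 40 genes of actin and junctions, 8 were higher and 5 lower, beside the same 14.9% and 24.3% of all genes. The tropomyosins TPM4 (1.61 ± 0.03) and TPM1 (0.50 ± 0.04), E-cadherin CDH1 (0.92 ± 0.05) and the myosin MYH9 (0.59 ± 0.04) rose, and the cadherins DSC2 and DSG2 (-0.53 ± 0.07) of desmosomes fell. At 48 h TPM4 was at 2.91, 2.71 and 2.94 RPKM in siNC, 13.9, 14.1 and 14.2 after siPDIA1 and 9.92, 9.69 and 10.4 after siPDIA5. The 96 h libraries held 3.72, 3.48 and 3.95 RPKM in siNC, 16.1, 17.3 and 16.5 after siPDIA1 and 9.37, 8.15 and 9.17 after siPDIA5. All controls of TPM4 lay at 3.95 RPKM or less and all knockdown libraries at 8.15 or more. Of 25 interferon-stimulated genes 9 were higher and 5 lower, again beside those shares. Among them, UBE2L6 (0.86 ± 0.06) and IFI44 (0.70 ± 0.11) were higher and HERC5 (-0.60 ± 0.07) was lower.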

How the data were processed

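The 18 libraries were analysed from the authors' deposited RPKM values per gene, and counts were not used. Tools listed by the submitters' processing notes, in no order, are STAR 2.7.0f, cutadapt 1.8, DESeq2, featureCounts and R 3.4.1, with hg38 and GRCh38 as builds. Of 59385 genes, 57118 matched GENCODE 29 without regard to version, which supplied types, exon lengths and GRCh38 coordinates. Depth was estimated from values of at most 20 reads, of which 99.6% to 99.8% were whole reads within 0.1, and entered no test.

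The 11685 genes whose mean RPKM reached 1 were fitted as log2(RPKM + 1) in limma 3.58.1 under R 4.3.3 (eBayes with trend), using 6 group means and all 18 libraries. Adjustment was by Benjamini-Hochberg over the genes tested, and genes under 0.05 were called. The procedure was tested on simulated data.

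Named were P4HB and PDIA5, then, among protein-coding common genes whose knockdown and siNC libraries did not overlap, the 12 in each direction with the largest weakest effect and the 4 with the largest remaining contrast, and the 2 common members of each list with the smallest adjusted p; 2 genes that this rule names are not reported here. Other list members and genes named in the text were chosen after their values were seen. Members and lists were chosen with earlier results of these data known. Alternatives were no filter, a filter at a mean of 5 RPKM, quantile normalization, median centring, 0.25 as pseudocount, no trend, a replicate block, protein-coding genes alone and leaving out each library. The list counts under other scalings, and without siPDIA1 replicate 1 at 96 h, were added after the data were seen.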

Additional observations from a re-analysis of the deposited data

Results flagged for a closer look

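Of the 70 genes named by the rule and reported, 35 had a common effect that differed between 48 h and 96 h by limma at an adjusted p under 0.05, beside 10.5% of all genes tested. Apart from the targets, the rule named genes for large effects or small adjusted p, which makes a called difference likelier. The 2 shares are thus not a like comparison. The values in brackets are the effect at 96 h minus that at 48 h, on the log2 scale. Since the controls of the 2 times differ too, a change in siNC over time is part of each difference.

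Among genes that were higher after knockdown, the effect was larger at 96 h for DIO3 (2.61), NOS3 (2.40), PLA2G2A (1.85), MMP7 (1.82), CAMK2N1 (1.51), SYT4 (1.40), CRYAB (1.24), LAMB3 (0.95), TSPAN15 (0.73), BTG1 (0.55), H2BC5 (0.42), TXNRD1 (0.38), XPC (0.37), IRF7 (0.33) and HERPUD1 (0.31). DIO3 had common effects of 0.91 at 48 h and 3.52 at 96 h (adjusted p = 1.67e-07) and NOS3 of 0.70 at 48 h and 3.10 at 96 h (adjusted p = 3.65e-08). It was smaller at 96 h for BCL2L1 (-0.28), PFKL (-0.27), GANAB (-0.26), TPM4 (-0.26) and SLC43A2 (-0.24).

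Among genes that were lower, the fall was larger at 96 h for ELOVL7 (-0.997), HES6 (-0.88), SLC45A3 (-0.87), DSC2 (-0.77), JAG1 (-0.69), PLK1 (-0.46), ACAT2 (-0.46), H2AX (-0.43), RPL22 (-0.38), MCM7 (-0.33), CDCA8 (-0.32), MCM2 (-0.29) and UBE2J1 (-0.26). ELOVL7 had common effects of -1.83 at 48 h and -2.83 at 96 h (adjusted p = 7.6e-06), and PLK1 of -0.61 at 48 h and -1.08 at 96 h (adjusted p = 0.000886). The fall was smaller at 96 h for FAF2 (0.27) and PTGES3 (0.24). The exons of ACAT2 share 397 of 4299 bases with TCP1 on the other strand. Mean levels were 16.8 RPKM for ACAT2 and 107 for TCP1, so the values of ACAT2 are uncertain if reads were not counted by strand.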

How the results depend on the processing

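Depth limits genes near 1 RPKM, and PCR reads are not independent molecules. The count of common genes was within 1.5 times of its value in every alternative except the filter at a mean of 5 RPKM, which tests fewer genes. It left 1096 higher and 1885 lower common genes, of which 1089 and 1869 were also common at the lower filter, 1654 genes with a higher contrast of any signs, 1448 higher at 96 h, 2377 higher after siPDIA1 than siPDIA5, and 369 with a higher effect at 96 h. With no filter, 430 genes had a lower effect at 96 h in place of 675. No named gene's contrast changed sign, but the balance of higher and lower calls turned with median centring for all 4 effects called (788 and 573), for 48 h (2278 and 2137) and between the siRNAs (3212 and 3215), and with quantile normalization for all 4 effects called (810 and 650). Leaving out 1 library gave 1660 to 1789 common higher and 2714 to 2860 common lower genes, and 2391 to 2629 and 3688 to 3958 with any signs. All 4 effects were called in 593 to 668 and 661 to 822 genes. The ranges were 1540 to 1903 and 2385 to 3084 at 48 h, 2045 to 2391 and 2824 to 3387 at 96 h, and 3766 to 4160 and 2465 to 2712 between the siRNAs. Between the times they were 389 to 751 and 451 to 887, lowest without siNC replicate 3 at 96 h and highest without siNC replicate 2 at 96 h. Same-numbered libraries deviated with r of -0.257 to 0.139, so they shared no strong deviation. These values cannot show whether same-numbered libraries came from the same culture or batch. A fit with the replicate number as a block gave 1742 higher and 2833 lower common genes. Of the named genes, RPS15 lost its call with median centring (adjusted p = 0.0502 by limma), MT-ND1 without the filter (0.0573) and MT-ND6 with quantile normalization (0.284). The causes were not tested.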

Other observations

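Among 22 histone genes whose RNA is polyadenylated or that encode variants, 7 were common and higher and 5 lower, beside 14.9% and 24.3% of all genes. H2BC5 (1.32 ± 0.06), H4C8 (0.73 ± 0.05) and H2BC8 (0.56 ± 0.09) rose, while H2AX (-0.84 ± 0.04), H2AZ1 (-0.48 ± 0.08) and H2AZ2 (-0.44 ± 0.04) fell. At 48 h H2AX was at 322 ± 4.18 RPKM (SD, n = 3) in siNC, 232 ± 8.42 after siPDIA1 and 187 ± 17.3 after siPDIA5, and at 96 h the means were 233, 139 and 89.1.

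Of 27 neuroendocrine genes 6 were tested, and SYT4 was the common one, higher. Few markers of other cell types reached the filter. Of 10 basal genes LAMB3 was tested and rose by 0.94 ± 0.06, with siNC libraries at 0.107 to 0.468 RPKM. LAMB3 passed the filter only through the knockdown groups, with means of 3.75 RPKM after siPDIA1 and 1.59 after siPDIA5 at 96 h. Its direction is thus a description. Of 8 endothelial genes VWF was tested and rose by 0.46 ± 0.05, while PECAM1 and CDH5 did not exceed 0.0311 RPKM in any library. Of 12 stromal genes 2 were tested and 0 were common, by limma, and of 13 leukocyte genes 0 were tested.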
